A study of Mus musculus with 18 samples.

Results

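The genes described here encode the ionotropic and metabotropic glutamate receptors and the Dlg, Shank and Homer scaffold proteins beneath them at the postsynaptic membrane. They were taken by name from a list of 31 genes, and the rule itself used no measured value, although the list was drawn up with earlier results of these data known. Of these, 29 had at least 1 probe set that could be named and tested, out of 13121 named genes tested on the array. The 29 genes were read by 56 probe sets, of which 51 passed the filter on low signal. The other 5 were additional probe sets of Grik1, Grik3, Grm7, Dlg1 and Grin2b, so none of the 29 genes was lost to the filter. Grin1 and Shank2 had no probe set named for them alone in the annotation used, and were not analysed here.

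The samples were 18 mouse hippocampi in 3 groups of 6. Animals labelled aged and impaired had poor spatial memory, animals labelled aged and unimpaired had good spatial memory, and young animals were also labelled unimpaired. Each sample was measured on 1 Affymetrix array. The labels name no strain, sex, age in months or treatment, and do not state that each sample was a separate animal, so p-values reflect sample-to-sample spread that may in part be technical. The study asked what differs in the hippocampus between animals that keep and animals that lose spatial memory with age.

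Glutamate carries most fast excitation in the hippocampus. AMPA receptors, built from the products of Gria1 to Gria4, pass most of the current at rest, NMDA receptors open when release coincides with depolarisation and admit the calcium that starts long-term potentiation, and kainate receptors act on both sides of the synapse. Metabotropic receptors signal through G proteins, and the Dlg, Shank and Homer proteins hold these receptors in the postsynaptic density. Changes in the number and subunits of AMPA and NMDA receptors at synapses are central to models of spatial learning.

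Levels below are log2 of a scaled signal plus an offset of 16, a scale that understates the change of dim genes. A gene with several probe sets was represented by the one of highest mean. Levels of different probe sets cannot be set against each other, since probes differ in brightness for the same amount of RNA. Differences carry the standard error of the fit after ±, and a call means a limma Benjamini-Hochberg adjusted p under 0.05 over all 27022 probe sets tested.

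No receptor or scaffold gene passed this test in any comparison. Between aged impaired and aged unimpaired samples limma called 0 of 29, against 0.00762% of all genes tested, which was 1 gene. Between aged unimpaired and young samples it called 0 of 29, against 0.145% of all genes. Between aged impaired and young samples, the comparison with the most calls, it called 0 of 29, against 1.9% of all genes. For both aged groups averaged and set against young samples the count was 0 of 29, against 1.19% of all genes. With shares this small a count of 0 among 29 genes lies near the background and does not set the group apart from other genes.

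At an unadjusted limma p under 0.05 the counts were 1, 1, 1 and 3 of 29 genes in the same order of comparisons. Those were 3.45%, 3.45%, 3.45% and 10.3% of the receptor and scaffold genes, beside 8.06%, 8.45%, 16.2% and 13.9% of all genes. The 3 groups enter more than 1 comparison each, so the comparisons are not independent of one another. In no comparison did any of the 29 genes have groups whose values did not overlap, beside 0.556%, 0.884%, 2.32% and 0.381% of all genes.

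The differences were small as well as uncalled. The median size of the difference over the 29 genes was 0.073 between the aged groups, 0.043 for aged unimpaired against young and 0.074 for aged impaired against young, and over all genes 0.088, 0.085 and 0.108. Between the aged groups the 95% interval lay within 1.5-fold either way for 28 of 29 genes, all but Grin2c, beside 84.2% of all genes. For aged unimpaired against young it did so for 26 of 29, the exceptions being Grik3, Grm4 and Shank1, beside 83.6% of all genes. For aged impaired against young it did so for 27 of 29, all but Grik3 and Shank1, beside 80.6%. The median interval, which carries no adjustment for the number of tests, reached 0.23 to either side of the difference on the log2 scale, and several differences beyond that size were not called. For comparison, the called genes of the whole array in aged impaired against young had a median size of 0.54, with a smallest of 0.23, and the largest difference of any receptor or scaffold gene there was 0.34.

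**Figure D1:**
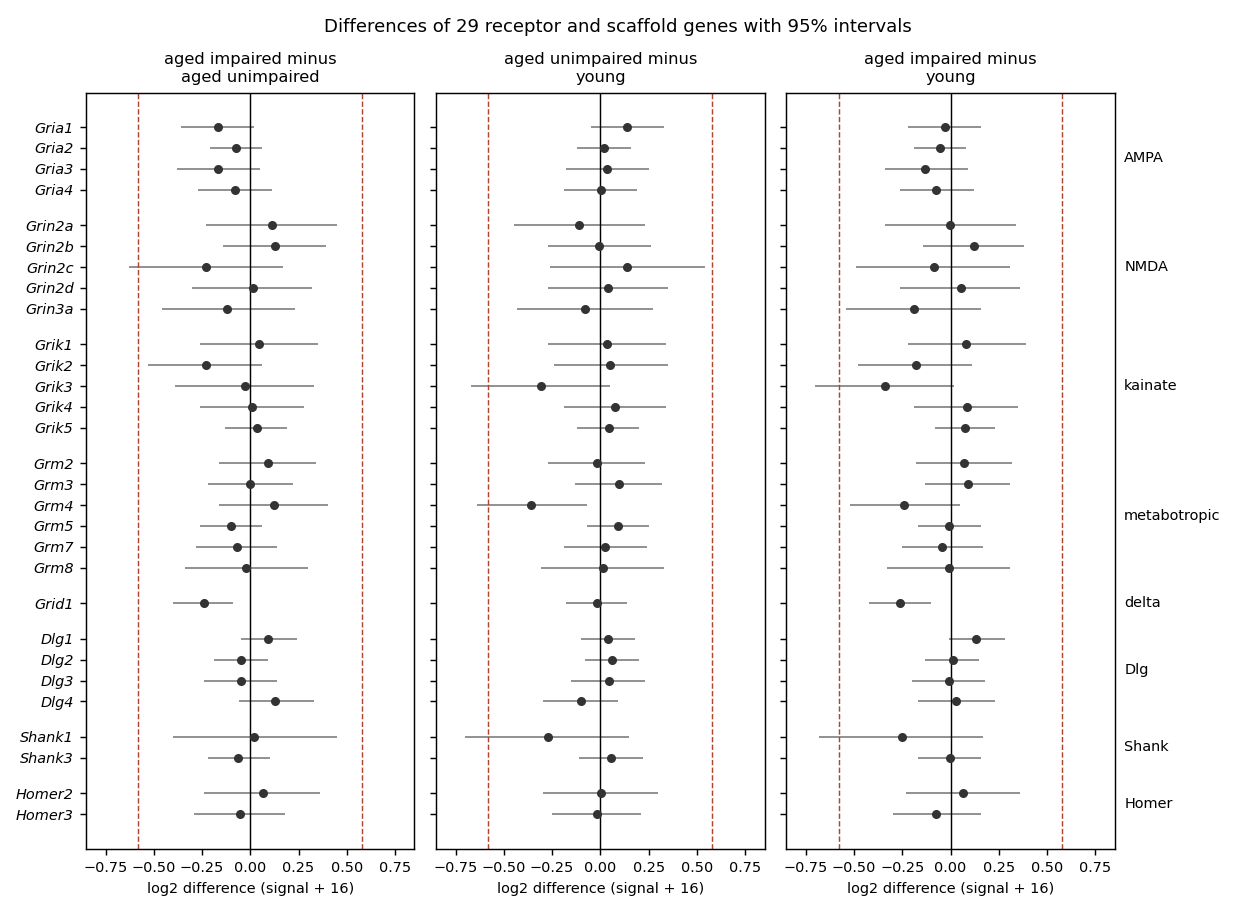
Differences of the 29 receptor and scaffold genes, on the log2(signal + 16) scale, in 3 comparisons of 6 against 6 samples. Points are the limma differences, bars their 95% intervals, and dashed lines mark 1.5-fold; the points lie between -0.36 and 0.14, and most intervals include 0 and stay inside the lines.

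Directions were mixed among receptors and among scaffolds. Between the aged groups 13 of 21 receptor genes and 4 of 8 scaffold genes had the lower mean in impaired samples, with median differences of -0.028 and -0.013, and over all genes 47.7% were lower with a median of 0.007. Against young, aged impaired samples had the lower mean in 14 of 21 receptor genes, with a median of -0.029, and in 4 of 8 scaffold genes, with a median of 0.003. Aged impaired samples were lower in 50.8% of all genes there. Aged unimpaired samples had the lower mean than young in 7 of 21 and 3 of 8, beside 52.3% of all genes. Over all 51 probe sets, which are not independent within a gene, 34 were lower in impaired than in unimpaired samples, beside 13035 of all 27022. Lower means than young were found in 33 of 51 for impaired and 22 of 51 for unimpaired samples, beside 14176 and 14643 of 27022. These counts describe direction only, since no gene passed the test.

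The AMPA receptor subunit genes were the class that leaned one way, though none passed. Gria1, whose product enters synapses during potentiation, had signals from 12.57 to 13.09 with a median of 12.8 in impaired samples, from 12.85 to 13.25 with a median of 12.97 in unimpaired samples, and from 12.71 to 12.96 with a median of 12.88 in young samples (probe set 1435239_at). Impaired samples reached lowest and unimpaired samples highest, and all 3 ranges overlapped. The difference between the aged groups was -0.17 ± 0.091 (adjusted p = 0.662), that of unimpaired against young 0.14 ± 0.091 (adjusted p = 0.723), and that of impaired against young -0.029 ± 0.091 (adjusted p = 0.913). The other Gria1 probe set gave -0.022 ± 0.12 between the aged groups.

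Gria2, the subunit that makes AMPA receptors impermeable to calcium, had the smallest spread within groups of the 29 genes, with an SD of 0.09. Its signals ran from 12.99 to 13.27 with a median of 13.18 in impaired, from 13.04 to 13.29 with a median of 13.27 in unimpaired and from 13.11 to 13.3 with a median of 13.21 in young samples (1421970_a_at), nearly the same span in each group. The difference between the aged groups was -0.073 ± 0.065, with a 95% interval from -0.21 to 0.06, and that of impaired against young was -0.054 ± 0.065, with an interval from -0.19 to 0.08. These were among the narrowest intervals of the 29 genes. Another Gria2 probe set nearly as bright, 1434146_at at a mean of 13.11, gave -0.21 ± 0.14 between the aged groups, with an interval from -0.51 to 0.08. It gave 0.18 ± 0.14 for unimpaired against young and -0.036 ± 0.14 for impaired against young.

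Gria3 ran from 10.8 to 11.58 with a median of 11.23 in impaired samples, from 11.28 to 11.48 with a median of 11.39 in unimpaired samples and from 11.14 to 11.47 with a median of 11.38 in young samples (1434728_at). The impaired group was the widest and held both the lowest and the highest sample. Its difference between the aged groups was -0.17 ± 0.1 (adjusted p = 0.715), and the other Gria3 probe set gave 0.025 ± 0.11. Without aged impaired replicate 2, the lowest sample, the difference was -0.084. Gria4, which serves mainly interneurons in the adult hippocampus, ran from 9.64 to 9.97 with a median of 9.94 in impaired, from 9.76 to 10.18 with a median of 9.93 in unimpaired and from 9.66 to 10.03 with a median of 9.97 in young samples (1435722_at). The groups overlapped, and Gria4 differed by -0.077 ± 0.09 between the aged groups and by 0.0023 ± 0.09 between unimpaired and young.

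All 4 AMPA subunit genes thus had a lower mean in impaired than in unimpaired samples, with a median difference of -0.121. All 4 also had a lower mean in impaired than in young samples, with a median of -0.064, though the probe sets of Gria1, Gria2 and Gria3 differed in sign there. Means were higher in unimpaired than in young samples, with a median of 0.028. In that last comparison Gria4 was at 0.0023 and changed sign under several alternatives. It went to -0.0035 with a pan-neuronal covariate and to a lower mean when its probe sets were averaged. The groups are shared between these comparisons, so the directions are not independent. Pan-neuronal markers had their lowest mean in the impaired group. The mean level of the 10 of 10 tested ranged from 13.3 to 13.38 in impaired, from 13.36 to 13.53 in unimpaired and from 13.29 to 13.51 in young samples. The impaired minus unimpaired difference was -0.07 (exact permutation p = 0.026, 2-sided, adjusted p = 0.136 over 42 marker tests). Markers of CA1 pyramidal neurons, the main output cells of the hippocampus, ranged from 10.29 to 10.67 in impaired and from 10.53 to 10.95 in unimpaired samples over the 5 of 6 tested, a difference of -0.28 (exact permutation p = 0.0108, adjusted p = 0.0649). With the pan-neuronal level as a covariate the differences between the aged groups were -0.16 ± 0.1 for Gria1, -0.036 ± 0.072 for Gria2, -0.16 ± 0.12 for Gria3 and -0.053 ± 0.1 for Gria4. In whole hippocampus, fewer cells of a type and less RNA per cell cannot be told apart.

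NMDA receptor subunit genes had differences on both sides of 0. Grin2b, the subunit that prevails early in life and lengthens the channel's currents, differed by 0.13 ± 0.13 between the aged groups (95% interval from -0.14 to 0.39), by -0.0072 ± 0.13 between unimpaired and young and by 0.12 ± 0.13 between impaired and young (1457003_at). Its dimmer probe sets lay on the other side of 0: 1442370_at gave -0.18 ± 0.17 between the aged groups and -0.24 ± 0.17 between impaired and young, and 1422223_at gave -0.066 ± 0.19 and -0.25 ± 0.19. On the bright probe set signals ran from 10.65 to 11.43 with a median of 11.23 in impaired and from 10.85 to 11.28 with a median of 11.04 in unimpaired samples, so the impaired range contained the unimpaired one. Grin2a, the subunit that rises as synapses mature, differed by 0.11 ± 0.16, -0.11 ± 0.16 and -0.00038 ± 0.16 in the same order, on a probe set of low signal (1421616_at). Grin3a, which lowers calcium entry, differed by -0.12 ± 0.17, -0.078 ± 0.17 and -0.19 ± 0.17, and its other probe sets also had lower means in impaired than in unimpaired or young samples. Grin2d, found mostly in interneurons, differed by no more than 0.053 ± 0.15 in any of the 3, and by -0.51 ± 0.27 between the aged groups on its other probe set, the dimmest of those tested.

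Grin2c had the widest interval between the aged groups after Shank1, -0.23 ± 0.19 with bounds of -0.63 and 0.17 (1449245_at). Impaired samples ran from 7.76 to 9.11 with a median of 8.76 and unimpaired samples from 8.25 to 9.01 with a median of 8.93. The groups overlapped, with 2 low samples among the impaired, at 7.76 and 8.17, and 1 among the unimpaired, at 8.25. Grin2c is best known from cerebellar granule cells. The mean level of 4 cerebellar markers ranged from 5.16 to 6.17 in impaired, from 5.04 to 5.97 in unimpaired and from 5.15 to 6.52 in young samples, and Gabra6, which defines granule cells, stayed between 4.12 and 6.11. Car8, a Purkinje cell marker and the only 1 of the 4 above the filter, differed by 0.34 ± 0.23 between the aged groups (adjusted p = 0.738) and by -0.7 ± 0.23 between unimpaired and young (adjusted p = 0.361), and its part in the Grin2c values was not tested.

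Kainate receptor subunits also showed no call. Grik2, a principal pore-forming subunit at mossy fibre synapses, ran from 7.75 to 8.49 with a median of 8.24 in impaired, from 8.13 to 8.98 with a median of 8.34 in unimpaired and from 8.1 to 8.66 with a median of 8.37 in young samples (1457683_at). The groups overlapped over most of their range, and 1 unimpaired sample stood high at 8.98. The difference between the aged groups was -0.23 ± 0.14 (adjusted p = 0.706), and the other Grik2 probe set gave -0.013 ± 0.13. The difference was -0.12 without that unimpaired sample (replicate 2), -0.15 without aged impaired replicate 2 and -0.34 with a pan-neuronal covariate.

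Grik3 had the largest aged against young difference among the kainate genes. It ran from 7.97 to 8.59 with a median of 8.36 in impaired, from 7.85 to 8.92 with a median of 8.32 in unimpaired and from 8.25 to 8.93 with a median of 8.7 in young samples (1440177_at). Both aged groups sat low by their medians, yet the ranges overlapped and the highest unimpaired sample matched the top of the young range. The differences from young were -0.34 ± 0.17 for impaired (adjusted p = 0.355) and -0.31 ± 0.17 for unimpaired samples (adjusted p = 0.671), and -0.32 ± 0.15 for the mean of both aged groups (adjusted p = 0.352). Of the 12 aged samples 11 lay below the young mean.

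The remaining kainate genes stayed close to 0. Grik4, a high-affinity subunit concentrated in CA3 pyramidal cells, differed by 0.0094 ± 0.13 between the aged groups and by 0.083 ± 0.13 between impaired and young (1437681_at), and Grik5, its close relative, by 0.032 ± 0.076 and 0.075 ± 0.076. Markers of CA3 pyramidal neurons, 5 of 5 tested, fell in impaired against young samples, from a mean of 9.55 ± 0.08 to 9.29 ± 0.13 (SD, n = 6; exact permutation p = 0.00433, adjusted p = 0.0455), and reached 9.35 ± 0.13 in unimpaired samples. Within the list Coch differed by -0.75 ± 0.3, Nectin3 by -0.25 ± 0.13 and Iyd by -0.24 ± 0.18 between impaired and young. Bok and Cpne4, its brightest genes, differed by -0.01 ± 0.09 and -0.03 ± 0.09. Grik4 thus had a higher mean in the same samples in which the mean of that list was lower, a fall carried mostly by its dimmer genes. Grik1, an interneuron subunit, differed by 0.047 ± 0.15 between the aged groups.

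Among the metabotropic receptors the members that couple to Gi proteins and sit mainly on terminals were Grm2, Grm3, Grm4, Grm7 and Grm8. Grm4 gave the lowest unadjusted p of the 29 genes for aged unimpaired against young. Its signals ran from 7.5 to 8.01 with a median of 7.95 in impaired, from 7.53 to 8.03 with a median of 7.65 in unimpaired and from 7.55 to 8.32 with a median of 8.2 in young samples (1457299_at). All 12 aged samples lay below the young mean of 8.1 ± 0.29 (SD, n = 6), but young replicate 1, at 7.55, lay among the lowest of all, so the ranges overlapped. The difference of unimpaired against young was -0.36 ± 0.13, with a 95% interval from -0.64 to -0.07 and an adjusted p of 0.467, and that of the mean of both aged groups was -0.3 ± 0.12 (adjusted p = 0.273). Between the aged groups it was 0.12 ± 0.13. Mean levels of cerebellar, thalamic and striatal neuron markers differed by -0.17, -0.24 and -0.18 in unimpaired against young (exact permutation, adjusted p = 0.707, 0.258 and 0.258). Their part in the Grm4 values was not tested.

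The other terminal receptors differed less. Grm2, a marker of perforant path and dentate terminals, differed by 0.091 ± 0.12 between the aged groups and by 0.072 ± 0.12 between impaired and young, and Grm3, which astrocytes also carry, by -0.002 ± 0.11 and 0.093 ± 0.11. Grm7 differed by -0.069 ± 0.1 and -0.043 ± 0.1, and Grm8 by -0.02 ± 0.15 and -0.0084 ± 0.15. Grm5, the Gq-coupled receptor that Homer proteins tie to internal calcium stores, ran from 11.81 to 12.24 with a median of 11.95 in impaired and from 11.96 to 12.18 with a median of 12.1 in unimpaired samples (1455272_at). The impaired range contained the unimpaired one, and the difference of -0.1 ± 0.077 was opposite in sign to the 0.047 of the other Grm5 probe set.

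Grid1, the delta receptor that binds neurexin through cerebellin and bridges the synaptic cleft, came closest to the threshold. On its brighter probe set (1441499_at) impaired samples ran from 9.26 to 9.74 with a median of 9.47, unimpaired samples from 9.66 to 9.78 with a median of 9.74 and young samples from 9.68 to 9.84 with a median of 9.76. Of the 6 impaired samples 5 lay below every unimpaired and young sample, and replicate 5, at 9.74, lay within both of those groups. The group means were 9.49 ± 0.19 in impaired, 9.73 ± 0.04 in unimpaired and 9.75 ± 0.06 in young samples (SD, n = 6), so the spread was also wider in the impaired group.

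The Grid1 difference between the aged groups was -0.24 ± 0.075, with a 95% interval from -0.4 to -0.09, a ratio of 0.844 and an adjusted p of 0.397. Against young, impaired samples differed by -0.26 ± 0.075, with an interval from -0.42 to -0.1, a ratio of 0.833 and an adjusted p of 0.0884. Unimpaired and young samples differed by -0.019 ± 0.075. Without aged impaired replicate 5 the impaired against young difference was -0.31 and its adjusted p 0.0328, the only 1 of 30 alternatives in which a receptor or scaffold gene was called, and over those the adjusted p ran from 0.0328 to 0.195. The other Grid1 probe set (1421569_at) gave smaller differences: its means were 8.05 ± 0.14, 8.06 ± 0.14 and 8.13 ± 0.17 (SD, n = 6) in impaired, unimpaired and young samples, and its differences -0.012 ± 0.092 between the aged groups and -0.084 ± 0.092 against young (adjusted p = 0.709). With the pan-neuronal level as a covariate the difference on the brighter probe set against young was -0.27 ± 0.082 (adjusted p = 0.13).

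**Figure D2:**
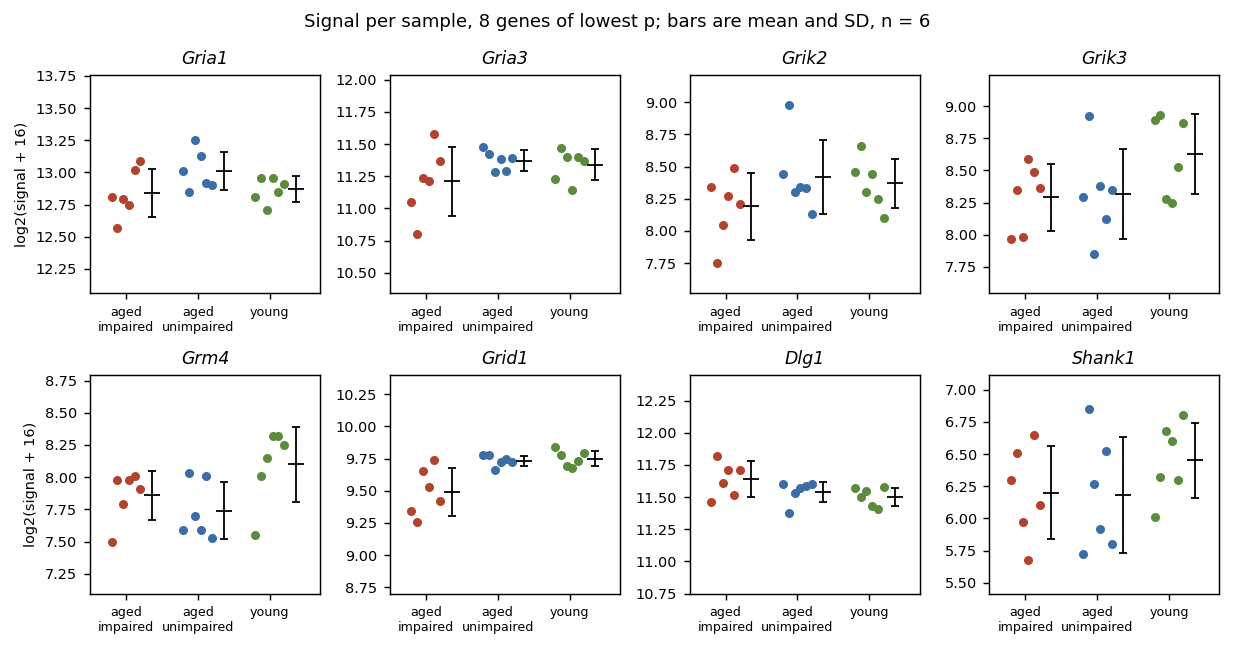
Level of 8 genes in each sample, on the log2(signal + 16) scale, for aged impaired, aged unimpaired and young samples. Points are samples in order of replicate number, and bars the mean and SD of 6; for Grid1, 5 of 6 impaired samples lie below the other groups, and for the other 7 genes the groups overlap.

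The Dlg scaffolds, which anchor receptors through their PDZ domains, had small differences in all comparisons. Dlg4, which encodes PSD-95, ran from 11.27 to 11.61 with a median of 11.52 in impaired, from 11.02 to 11.55 with a median of 11.34 in unimpaired and from 11.3 to 11.57 with a median of 11.43 in young samples (1419580_at). The groups overlapped, and the differences were 0.13 ± 0.094 between the aged groups (adjusted p = 0.749), -0.1 ± 0.094 for unimpaired against young and 0.029 ± 0.094 for impaired against young. Dlg1, which encodes SAP97 and carries AMPA receptors to the membrane, ran from 11.46 to 11.82 with a median of 11.66 in impaired and from 11.41 to 11.58 with a median of 11.52 in young samples (1415691_at). Impaired samples reached higher, the ranges overlapped, and the difference of 0.13 ± 0.069 did not pass (adjusted p = 0.361).

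Dlg2 and Dlg3, which encode PSD-93 and SAP102, differed by -0.047 ± 0.067 and -0.05 ± 0.09 between the aged groups. The interval for Dlg2 against young in impaired samples was narrow, from -0.13 to 0.15 around 0.011 (1437927_at). Shank3, a deep scaffold that links receptor complexes to actin, differed by -0.062 ± 0.077 between the aged groups and by -0.0052 ± 0.077 between impaired and young, with an interval from -0.17 to 0.16 (1419137_at). Shank1 lay just above the filter, at a mean of 6.28 over all samples where 5.92 was the limit, and had the largest spread within groups, an SD of 0.37. Impaired samples ran from 5.68 to 6.65 with a median of 6.2, unimpaired samples from 5.72 to 6.85 with a median of 6.1 and young samples from 6.01 to 6.8 with a median of 6.46, and the ranges overlapped. Its difference from young was -0.25 ± 0.2 in impaired (adjusted p = 0.588) and -0.27 ± 0.2 in unimpaired samples (adjusted p = 0.769). Homer2 and Homer3 differed by 0.064 ± 0.14 and -0.055 ± 0.11 between the aged groups.

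For 15 of the 29 genes more than 1 probe set was tested, which allows a check within the gene. All tested probe sets of a gene lay on the same side of 0 in 9 of 15 genes between the aged groups, beside 47.3% of the 6281 genes of the array with several, and in 5 of 15 between impaired and young, beside 47.9%. The 5 were Gria4, Grin3a, Grik2, Grid1 and Dlg1. Over all 51 probe sets limma called 0 in each comparison, beside 0.0111%, 0.137%, 1.63% and 0.947% of all probe sets. At an unadjusted p under 0.05 the counts were 3, 3, 6 and 5, beside 8.09%, 8.19%, 15.8% and 13.4%.

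Some dimmer probe sets, singled out once their values had been seen, gave other sizes than the brightest one of their gene. The dimmer Dlg2 probe sets 1421200_at and 1421199_at differed by -0.35 ± 0.12 (adjusted p = 0.472) and -0.38 ± 0.15 (adjusted p = 0.513) between the aged groups, where the bright one gave -0.047. On the first, impaired samples ran from 7.31 to 7.65 with a median of 7.52 and unimpaired samples from 7.49 to 8.06 with a median of 7.92, and all 6 impaired samples lay below the unimpaired mean. The dimmer Grm7 probe set 1458861_at was the only 1 of 51 whose groups did not overlap, 6.75 to 7.12 in unimpaired against 5.93 to 6.7 in young samples, beside 0.766% of all probe sets in that comparison. Its difference of 0.45 ± 0.14 did not pass (adjusted p = 0.326). In the other comparisons the count was 0 of 51, beside 0.525% between the aged groups, 2.01% for impaired and 0.303% for both aged groups against young.

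The dimmest Gria2 probe set, 1453098_at, had higher means in both aged groups than in young samples, by 0.25 ± 0.089 for their mean (adjusted p = 0.218). On it 11 of 12 aged samples lay above the young mean. The dimmer Gria4 probe sets 1440891_at and 1421351_at differed by -0.37 ± 0.17 and -0.39 ± 0.18 between impaired and young (adjusted p = 0.305 and 0.311), where the bright one gave -0.074 ± 0.09. Which transcript ends or isoforms these probe sets read was not analysed here.

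**Figure D3:**
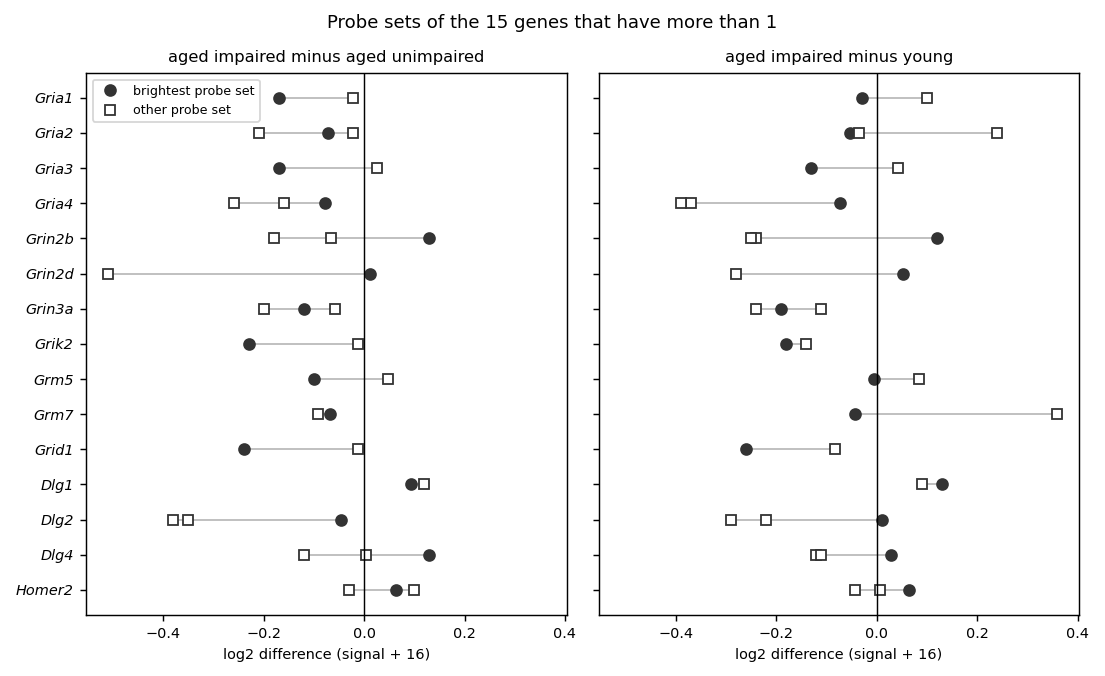
Differences of every tested probe set of the 15 genes with more than 1, on the log2(signal + 16) scale, for aged impaired minus aged unimpaired and aged impaired minus young. Filled circles are the brightest probe set of a gene and open squares the others; for Dlg2 the dimmer sets lie at -0.35 and -0.38 where the brightest lies at -0.047, and for Gria2 and Grm7 a dimmer set lies above 0 against young while the brightest lies just below it.

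Genes that work with these receptors were read from lists of auxiliary subunits, other scaffold, adhesion, trafficking, G protein signalling and glutamate handling proteins, 70 of 82 of which were tested. Between the aged groups and between unimpaired and young limma called 0 of 70, beside 0.00762% and 0.145% of all genes, with 10 and 5 at an unadjusted p under 0.05, beside 8.06% and 8.45%. Between impaired and young it called 1 of 70, beside 1.9% of all genes, with 10 at an unadjusted p under 0.05, beside 16.2%. The 1 called gene was lower in impaired samples, as were 0.594% of all genes by the same test. A count of 1 among 70 lies near the background and does not set these genes apart. Means were lower in 38, 39 and 39 of 70 in the 3 comparisons, with medians of -0.031, -0.009 and -0.028.

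The called gene was Shisa9, an auxiliary protein of AMPA receptors that shapes short-term plasticity in the dentate gyrus. It fell by 0.36 ± 0.08 on the log2 scale in impaired against young samples (adjusted p = 0.0355), with all 6 impaired samples below the young mean, and differed by -0.24 ± 0.08 in unimpaired samples (adjusted p = 0.415). The probe set, 1435424_x_at, is of a kind whose probes can match other transcripts, and the other Shisa9 probe sets gave -0.05 ± 0.15 and -0.07 ± 0.17. Of the 15 auxiliary subunit genes tested, 10 had a lower mean in impaired than in young samples, with a median of -0.145. Of the 14 synaptic adhesion genes tested the count was also 10, with a median of -0.114, and over all genes 50.8% were lower. The other lists did not lean so: the count was 5 of 9 for trafficking, 8 of 15 for other postsynaptic density proteins and 4 of 9 for glutamate handling. For G protein signalling it was 2 of 6, and for further receptor and Homer genes 0 of 2. Lrrtm1, a postsynaptic partner of neurexin, differed by -0.31 ± 0.1 between impaired and young (adjusted p = 0.132).

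Other members of these lists did not pass on their brightest probe set. Neto2, an auxiliary subunit of kainate receptors that was picked with its values in view, differed by -0.33 ± 0.09 between impaired and young (adjusted p = 0.0722) and by -0.32 ± 0.09 between the aged groups (adjusted p = 0.333), with all 6 impaired samples below the mean of either group, and by -0.01 ± 0.09 between unimpaired and young. Baiap2, which links Shank to actin, differed by -0.31 ± 0.1 between impaired and young (adjusted p = 0.146), and Dlgap4, which links Dlg to Shank, by 0.23 ± 0.09 (adjusted p = 0.212). Nsf, a trafficking ATPase that binds the Gria2 product, differed by -0.1 ± 0.06 (adjusted p = 0.472), and Plcb1, the phospholipase downstream of Grm5, by 0.14 ± 0.09 (adjusted p = 0.469). Values for the adhesion protein Lrrc4b, the receptor-linked cytoskeletal protein Epb41l1 and the G protein gene Gna11 were -0.18 ± 0.08, -0.1 ± 0.07 and -0.11 ± 0.08, and for the glutamine transporters Slc38a1 and Slc38a2 they were 0.13 ± 0.09 and -0.17 ± 0.12, with adjusted p from 0.281 for Lrrc4b to 0.546 for Gna11. Grin3b, a further NMDA receptor subunit, differed by 0.09 ± 0.27 (adjusted p = 0.91).

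Homer1, the scaffold that joins Grm5 to Shank and whose short activity-induced form breaks that link, stood outside the 31 genes and was picked with its values in view. Its brightest probe set, 1437363_at, differed by 0.05 ± 0.06 between impaired and young (adjusted p = 0.761). On the probe set 1436387_at impaired samples ran from 9.29 to 9.85, unimpaired samples from 9.87 to 10.41 and young samples from 10.23 to 10.8. The impaired samples lay below every other sample, whereas unimpaired and young samples overlapped. This probe set fell by 1.03 in impaired against young samples, with a standard error of 0.12 and an adjusted p of 0.000148, while the difference between the aged groups was -0.66 ± 0.12 (adjusted p = 0.0839). The other Homer1 probe sets gave -0.12 ± 0.14, -0.03 ± 0.08 and -0.19 ± 0.07 against young, and which Homer1 transcript each reads was not analysed here. Homer2 and Homer3, on their brightest probe sets, differed by 0.065 ± 0.14 and -0.074 ± 0.11 against young.

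Microglial and myelinating oligodendrocyte markers differed between impaired and young samples by exact permutation tests of list means. Receptor genes were tested singly by limma over all probe sets, so the outcomes are not directly comparable. For impaired against young the permutation test gave adjusted p = 0.258 for astrocyte, 0.326 for oligodendrocyte precursor and 0.623 for endothelial markers. It gave 0.835 for interneuron, 0.885 for dentate granule and 0.948 for choroid plexus markers, so these lists did not pass. Microglial markers, 9 of 10 tested, rose from a range of 9.64 to 9.97 in young to 10.18 to 10.74 in unimpaired and 10.28 to 10.8 in impaired samples, by 0.53 and 0.7 (exact permutation p = 0.00216, the smallest 6 against 6 can give, adjusted p = 0.0455). Myelinating oligodendrocyte markers, 8 of 9 tested, ranged from 12.24 to 12.42 in impaired, 11.83 to 12.27 in unimpaired and 11.74 to 12.26 in young samples, and rose by 0.33 in impaired against young (exact permutation p = 0.00433, adjusted p = 0.0455). In impaired against young, 8 of 9 microglial and 7 of 8 oligodendrocyte genes had the higher mean. The exceptions were P2ry12, at -0.08 ± 0.11, and Mbp, at -0.05 ± 0.14, and Cnp differed by only 0.1 ± 0.14. Choroid plexus markers, 9 of 11 tested, spread from 7.24 to 11.15 within and across all groups. With the choroid level as a covariate Grid1 differed by -0.26 ± 0.075 between impaired and young (adjusted p = 0.0868) and Gria1 by -0.11 ± 0.084 between the aged groups. The part of the oligodendrocyte and microglial levels in the receptor values was not tested.

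**Figure D4:**
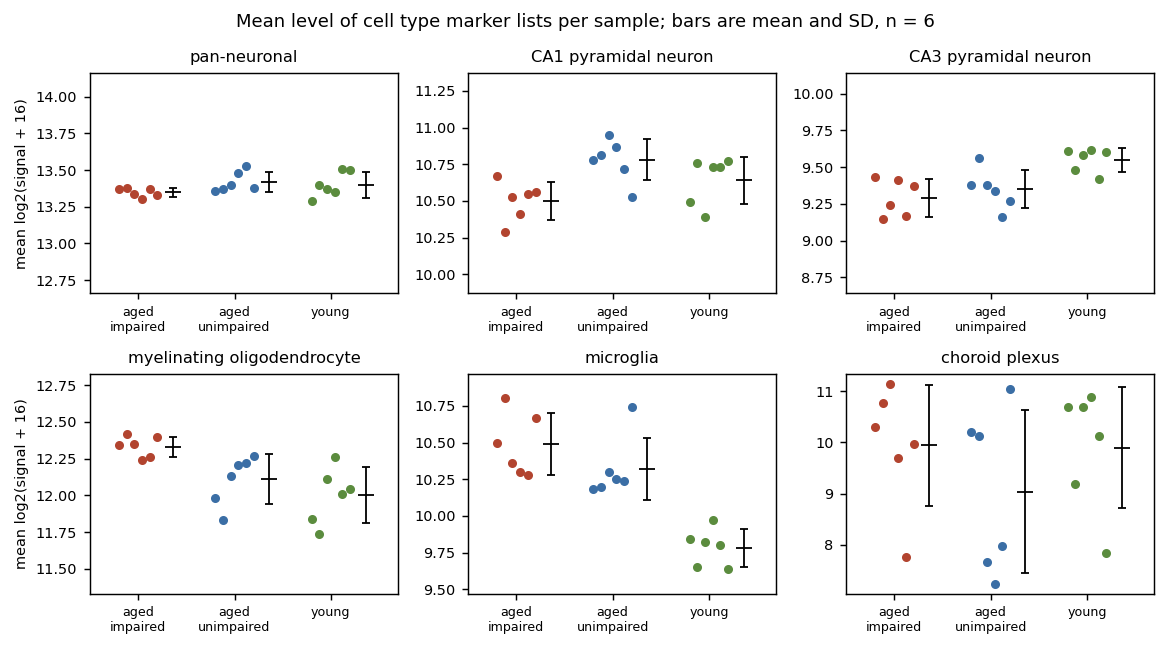
Mean log2(signal + 16) of 6 cell type marker lists in each sample, for aged impaired, aged unimpaired and young samples. Points are samples and bars the mean and SD of 6; microglial markers separate young from aged samples, CA3 markers lie highest in young samples, and choroid plexus markers spread from 7.24 to 11.15.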

How the data were processed

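The authors deposited 1 linear intensity per probe set and array, for which the submitters' processing notes name MAS5 with no version. The table held 45101 probe sets on each of 18 arrays, with signals from 0 to 27601. Detection calls and scanner files were not used here. Precision rests on the number of arrays.

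Signals were rescaled so that every array had a 2%-trimmed mean of 500, and log2 was taken of the signal plus 16. The 64 control probe sets and the dimmest 40% of the others, ranked by mean level, were dropped, leaving 27022. Among probe sets of the receptor and scaffold genes, the nearest below that limit of 5.92 was one of Grin2b, at 5.72, and the nearest above was one of Grin2d, at 6.06. Gene names came from the platform annotation, updated through a RefSeq table of assembly GRCm38.p6; probe sets with several symbols were left unnamed, which removed one shared by Grm2 and Gm28111.

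Group means were compared with limma 3.58.1 (R 4.3.3), in 1 empirical Bayes fit of all 18 samples, 2-sided, with Benjamini-Hochberg adjustment over all probe sets tested; it was tested on simulated data. The probe set of highest mean stood for a gene. Genes shown with full values were the 4 of lowest p in each comparison, the members of each receptor class, and, in each list of partner genes, every gene called or else the 2 of lowest p for aged impaired against young; others are named as picked after their values were seen. Marker lists were averaged on the log2 scale and compared with exact permutation tests, adjusted over 42. The 31 genes and all lists were chosen with earlier results of these data known. Alternatives were the offset, the filter, quantile normalization, array weights, robust moderation, the mean of a gene's probe sets, marker covariates, a replicate block, only the compared groups and each sample left out. No sequence is shown because no probe or protein sequences were available here.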

Additional observations from a re-analysis of the deposited data

Results flagged for a closer look

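In 6 of 87 groups of 6 samples, taken over the 29 genes on their brightest probe set, 1 sample lay farther from the others than Dixon's limit allows, and chance gives about 1 in 20. Gria4 was low in young replicate 4, at 9.66 where the nearest sample was at 9.93, and Grm8 was low in the same sample, at 6.8 against 7.44. Grin2c was low in aged unimpaired replicate 6, at 8.25 against 8.83. Grik2 was high in aged unimpaired replicate 2, at 8.98 against 8.44, and Dlg1 was low there, at 11.38 against 11.53. Shank3 was high in aged impaired replicate 1, at 11.99 against 11.72.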

How the results depend on the processing

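The count of receptor and scaffold genes called was 0 in every comparison under all alternatives but one: without aged impaired replicate 5, 1 gene, Grid1, was called for aged impaired against young, so that leaving out samples gave counts from 0 to 1 there. The cause was not tested. The lowest adjusted p of any of these genes with a sample left out was 0.195 between the aged groups, 0.183 for unimpaired and 0.0328 for impaired against young, and 0.0888 for both aged groups; under the other alternatives it was 0.274, 0.352, 0.0558 and 0.198. With 60% of probe sets left out by signal 25 of 29 genes remained, without Shank1. Differences of the 4 genes of lowest p in each comparison kept their direction under all alternatives. Among all 29 genes, alternatives other than leaving out samples turned the sign of at most 8, between impaired and young with a gene's probe sets averaged, and the largest difference turned was 0.13, between the aged groups with probe sets averaged. Averaging also took Grid1 to -0.13 between the aged groups and -0.17 against young, and Gria1, Gria3 and Grik2 between the aged groups to -0.1, -0.07 and -0.12. Unimpaired against young, Gria1 was 0.086 with a choroid covariate and 0.093 without aged unimpaired replicate 3, and Shank1 was -0.16 with an offset of 64 and -0.41 without aged unimpaired replicate 2. Grm4 in impaired against young was -0.15 with a pan-neuronal covariate. A replicate block called 0 of 29 genes in each comparison, but 0 of 18 pairs of samples with the same number correlated above 0.1 (-0.224 to 0.098), so the numbers do not pair the samples. Comparing only 2 groups could not be applied to the mean of both aged groups.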

Other observations

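Some arrays were the lowest or the highest of their group for many receptor and scaffold genes together. Aged impaired replicate 2 was the lowest of its group for 14 of 29 genes, beside 21.2% of all genes tested. Aged unimpaired replicate 2 was the lowest of its group for 11 of 29, beside 21.3% of all genes, and young replicate 4 for 9 of 29, beside 18.6%. The same aged unimpaired array was also the highest of its group for 8 of 29, beside 17.6%. Aged impaired replicate 5 was the highest of its group for 9 of 29, beside 16% of all genes. Young replicate 2 was the highest of its group for 9 genes and the lowest for 0, beside 15.9% and 14.8% of all genes.

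On probe sets that were not the brightest of their gene, and singled out after their values were seen, limma also called Lrrtm3 and Tnik. Lrrtm3, a synaptic adhesion gene, fell by 0.54 ± 0.12 in impaired against young samples on 1434761_at (adjusted p = 0.0254). Its other probe sets gave -0.28 ± 0.16, -0.05 ± 0.11 and -0.24 ± 0.13. Tnik, a kinase of the postsynaptic density, rose by 0.41 ± 0.1 on 1430579_at (adjusted p = 0.047). Its brightest probe set, 1455256_at, gave -0.14 ± 0.07 (adjusted p = 0.307), and the others 0.1 ± 0.23 and 0.09 ± 0.1. In that comparison limma called 1.63% of all probe sets, and the tested probe sets of the partner genes were not counted.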
